A study of Mus musculus with 24 samples.

Results

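The 48 genes described here take up, activate, oxidize or store fatty acids. They were chosen by name, and all 48 were found among 21000 protein-coding genes with curated RefSeq transcripts on mm10. By role, 14 act in uptake and activation, 20 in oxidation and 14 in storage. H3K27ac, a histone mark of active promoters and enhancers, was measured by ChIP-Seq in myofibers isolated with collagenase II from the quadriceps of male and female C57BL/6 mice, which the methods of the study give as C57BL/6J. Vehicle mice received DMSO in PBS, and weekly prednisone mice received prednisone at 1 mg/kg once a week for 4 weeks, in 5 injections with vehicle on the days between, from 10 weeks of age. Prednisone-treated muscle was taken 4, 6 or 8 days after the last injection. Each of the 8 groups (sex by vehicle, day 4, day 6 or day 8) had 2 H3K27ac libraries and 1 input library and is represented by 1 deposited peak list.

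Muscle fibers burn fatty acids from the blood and from their own lipid droplets. Fatty acids are freed from lipoproteins at the vessel wall, cross the fiber membrane through carriers, are bound by small cytosolic proteins and are joined to coenzyme A. The carnitine shuttle then brings them into mitochondria, where β-oxidation shortens them and passes electrons to the respiratory chain, while acyl groups that are not burned are built into triglyceride on droplets. Glucocorticoids and the nuclear receptors PPAR and ERR are known regulators of many of these genes.

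Each list was scored for a member in 3 ways: a peak within 10 kb of any annotated start (the start window), a peak over the gene body, and a start lying inside a peak. An overlap of 1 bp was enough. Since each group is a single list, differences between groups come without replicate error and were not tested. A gene without a called peak may still carry the mark below the calling threshold. Depth was 7.52 M H3K27ac tags in the male day 4 list and from 27.5 to 50.5 M in the other lists, the lists held from 17482 to 123249 peaks, and from 5.39% to 47.3% of tags lay in peaks. The largest list, with the highest share, was that of female day 6. Of 17 myofiber marker genes, 12 to 17 had a peak in the start window in each list, and of 8 markers of tissues that should be absent, 1 to 5 did. In each list the myofiber share was above that of all protein-coding genes, 41.6% to 78.3% by list, and the absent tissue share below it. Of 5 fibroblast markers, 4 had one in each female list. In male vehicle and at male days 4, 6 and 8, 2, 1, 1 and 0 did. In the same order, macrophage markers numbered 1, 1, 3 and 2 of 5 in females and 3, 1, 1 and 1 in males. Satellite cell markers numbered 2, 4, 3 and 3 of 4 in females and 4, 1, 1 and 2 in males. In chromatin of a whole fiber preparation, fewer cells of a type and less mark per cell cannot be told apart.

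Promoters of 4 members are shown because their starts lay inside a peak in every list or differed between lists. The sequences are the 250 bases before a start, from RefSeq on mm10 (GRCm38), 5′ to 3′ on the strand of the gene, and none overlaps an annotated exon. Capitals mark matches, on either strand, to GGGCGG, the GC box bound by Sp1 family factors. The promoter of Hadhb (plus strand, chr5:30155003-30155252) is also that of Hadha, which starts on the other strand, and both starts lay in a peak in all 8 lists. The Pnpla2 start (plus strand, chr7:141454938-141455187) lay in a peak in all 8 lists as well. The upstream start of Lipe (minus strand, chr7:25395988-25396237) lay in a peak at female days 4, 6 and 8 and in male vehicle, and its downstream start in all 8 lists. For Slc27a4 (plus strand, chr2:29802384-29802633) the start lay in a peak in those same 4 lists. The promoters of Etfb and of the downstream Lipe start overlap annotated exons and are not shown. Both of these starts lay in a peak in all 8 lists, and neither promoter held a GC box.
Hadhb: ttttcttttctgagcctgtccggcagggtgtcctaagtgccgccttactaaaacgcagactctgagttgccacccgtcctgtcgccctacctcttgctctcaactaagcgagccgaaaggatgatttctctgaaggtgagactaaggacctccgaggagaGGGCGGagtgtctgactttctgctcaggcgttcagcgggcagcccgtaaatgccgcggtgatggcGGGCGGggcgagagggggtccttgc
Pnpla2: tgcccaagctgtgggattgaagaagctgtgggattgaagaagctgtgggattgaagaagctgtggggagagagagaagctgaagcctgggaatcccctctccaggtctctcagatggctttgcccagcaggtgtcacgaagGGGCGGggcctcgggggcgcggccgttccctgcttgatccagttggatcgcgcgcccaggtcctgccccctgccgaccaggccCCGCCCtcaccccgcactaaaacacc
Lipe: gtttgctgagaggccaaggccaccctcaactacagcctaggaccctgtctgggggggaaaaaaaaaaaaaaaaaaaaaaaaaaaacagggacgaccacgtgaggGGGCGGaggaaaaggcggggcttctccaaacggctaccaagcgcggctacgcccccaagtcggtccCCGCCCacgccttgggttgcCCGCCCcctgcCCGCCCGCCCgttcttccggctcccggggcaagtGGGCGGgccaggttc
Slc27a4: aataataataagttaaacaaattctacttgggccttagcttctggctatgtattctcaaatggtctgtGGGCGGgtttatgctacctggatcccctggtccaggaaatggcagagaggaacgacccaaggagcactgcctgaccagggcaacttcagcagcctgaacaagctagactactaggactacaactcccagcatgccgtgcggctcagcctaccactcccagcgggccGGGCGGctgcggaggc

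Of the 48 members, 39 had a promoter entry, and 24 of these (61.5%) held a GC box in the 250 bases, beside 47.2% of 16853 protein-coding genes with an entry. The members with no entry were Lpl, Angptl4, Fabp4, Cpt1b, Acaa2, Cidea, Dgat1, Dgat2 and Scd1. A CCAAT box (CCAAT) was found in 19 members (48.7%) and in 39.7% of all genes. A TATA box (TATAAA) was found in 1 member (2.56%), Acacb, and in 13.5% of all genes. The glucocorticoid receptor consensus ACANNNTGT matched in 3 members (7.69%), Acsl6, Hadh and Lipe, and in 6.06% of all genes. These are matches of letters on either strand and do not show binding. Member promoters had a median GC content of 59.6%, and all promoters 56.0%.

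Farther from the starts, the windows were searched on both strands for a repeat bound by PPAR with RXR (AGGNCANAGGNCA) and for the response element of ERR (TCAAGGTCA). The last letters of the ERR element also fit each arm of the PPAR repeat. At least 1 PPAR repeat lay in the start window of 21 members (43.8%), beside 32.7% of all protein-coding genes, and an ERR element in that of 31 members (64.6%), beside 44.0%. By role, 10 of 14 storage genes (71.4%), 13 of 20 oxidation genes (65.0%) and 8 of 14 uptake genes (57.1%) had an ERR element, and 5, 9 and 7 genes of those roles had a PPAR repeat. Windows are longer for the 9 members with more than 1 annotated start.

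The 7 elements below lay in peaks in most lists, and the 8th, of Cidec, lay in none. They are not all of the elements in peaks in most lists. Others, at Plin5 in 6 lists and at Gpam and Lpin1 in 5 lists, are not printed. Capitals mark the matched letters, and each is written in the direction of the element.
Acads, PPAR repeat: accaaactAGGACAAAGGCCAcgcgcagc
Etfdh, PPAR repeat: gctaaactAGGGCAAAGGTCAatgctgtc
Lipe, PPAR repeat: atacatgaAGGGCAGAGGGCAcgaagtag
Fabp3, ERR element: tttctgatTCAAGGTCAcaggcttt
Pnpla7, ERR element: acacgagtTCAAGGTCAttcttttc
Mlycd, ERR element: gccaaaagTCAAGGTCAccaccgcc
Chpt1, ERR element: gggcgctgTCAAGGTCActtactgc
Cidec, ERR element: ttgtgagtTCAAGGTCAgcttgatc

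In Acads, a short-chain acyl-CoA dehydrogenase, the repeat is intronic, 0.229 kb into the gene (chr5:115119111-115119123), and lay in a peak in 5 lists. In Etfdh, which passes electrons from β-oxidation to ubiquinone, it is intronic at 0.380 kb (chr3:79628381-79628393) and lay in a peak in 6 lists. The intronic repeat of Lipe (chr7:25391175-25391187), 1.07 kb before the downstream start, lay in a peak in 7 lists, all but male day 8. The Fabp3 element is intergenic (chr4:130306841-130306849), 1.89 kb before the start, and lay in a peak in 5 lists. In Pnpla7 (chr2:24976880-24976888) and Mlycd (chr8:119395814-119395822) the element is intronic, 0.851 and 0.924 kb into the gene, and lay in a peak in the same 6 lists: all female lists, male vehicle and male day 6. The intronic element of Chpt1 (chr10:88503308-88503316) lies 0.658 kb into the gene, in a peak in 5 lists. That of Cidec (chr6:113434245-113434253), also intronic, lies 0.515 kb after the downstream start of this gene, in a peak in 0 lists.

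Of 29 PPAR repeats near members, 13.8% lay in a peak in female vehicle, then 24.1%, 51.7% and 44.8% at days 4, 6 and 8. In males these shares were 27.6%, 13.8%, 10.3% and 3.45%. Of all bases in member windows, 7.75%, 21.6%, 39.5% and 36.6% lay in peaks in the female lists and 16.1%, 4.57%, 9.25% and 6.29% in the male lists. The PPAR repeats thus lay in peaks more often than the window bases in 7 lists and less often at male day 8, where the share is 1 repeat of 29, and this was not tested. For 51 ERR elements the shares were 9.80%, 23.5%, 35.3% and 33.3% in females and 23.5%, 3.92%, 13.7% and 1.96% in males. They were below the share of window bases at female days 6 and 8 and at male days 4 and 8. In the windows of all protein-coding genes, 1.73% to 21.2% of PPAR repeats and 1.63% to 17.3% of ERR elements lay in peaks, depending on the list. Of the elements near members, 14 PPAR repeats and 29 ERR elements lay in no peak of any list.

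In the start window, 38 members had a peak in female vehicle and all 48 at days 4, 6 and 8. Among all protein-coding genes these shares were 45.8%, 67.3%, 78.3% and 71.8%. In males, all 48 members had a peak in the vehicle list and 39, 36 and 35 in the lists of days 4, 6 and 8, beside 72.2%, 41.6%, 44.1% and 44.3% of all genes. At the shares of all genes, 22.0 members would have had one in female vehicle and 20.0 at male day 4. No member had a peak in fewer than 4 lists, whereas 12.6% of all genes had one in no list. With every list reduced to its 17482 highest-scoring peaks, the number in the shortest list, the counts were 32, 35, 29 and 33 in females and 33, 39, 34 and 35 in males. At that length 32.6%, 41.2%, 42.2% and 42.0% of all genes had a window peak in females and 41.2%, 41.6%, 36.9% and 42.7% in males. The female day 4 list then held 3 more members than vehicle, not 10, and the male day 4 list more members than vehicle, not fewer.

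By role, the female vehicle list had a peak in the start window of 19 of 20 oxidation genes, 9 of 14 uptake genes and 10 of 14 storage genes. Every gene of each role had one at female days 4, 6 and 8 and in male vehicle. In the treated males, oxidation genes numbered 18, 16 and 15 at days 4, 6 and 8, uptake genes 10, 11 and 9, and storage genes 11, 9 and 11. The share of each role was above that of all genes in all 8 lists. The difference between roles was not tested.

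Over the gene body, 38, 46, 48 and 48 members had a peak in the female lists and 47, 37, 30 and 37 in the male lists. The background was 43.9%, 65.6%, 76.5% and 70.2% of genes in females and 69.3%, 38.5%, 41.8% and 42.3% in males. Members are longer than most genes (median 23.4 kb, beside 16.7 kb over all genes). At the shares of genes of the same length decile, 23.1, 35.3, 40.7 and 37.8 members would have had a body peak in females and 37.5, 20.5, 22.0 and 22.2 in males. Uptake genes were the longest, with a median of 44.0 kb. Storage genes, with a median of 17.5 kb, had body peaks in 6 of 14 at male day 6, where 16 of 20 oxidation genes and 8 of 14 uptake genes had them.

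The start itself lay in a peak for fewer members. In females these numbered 15, 40, 46 and 47, beside 15.1%, 45.9%, 62.6% and 56.2% of all genes. In males they numbered 35, 15, 14 and 22, beside 39.9%, 20.4%, 20.2% and 25.9%. With lists of equal length these counts were 12, 26, 20 and 23 in females and 19, 15, 13 and 22 in males, beside 12.2%, 27.8%, 30.0% and 29.2% of all genes in females and 23.7%, 20.4%, 18.1% and 25.6% in males. Oxidation genes made up 9 of the 15 in female vehicle, with 2 uptake and 4 storage genes. Uptake genes had 12 of 14 starts in a peak in male vehicle and 1 of 14, that of Cd36, at male day 6, a share of 7.14% that was below the background, as was the uptake share in female vehicle. At male day 8 storage genes had 8 of 14 starts in a peak, oxidation genes 10 of 20 and uptake genes 4 of 14.

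**Figure D1:**
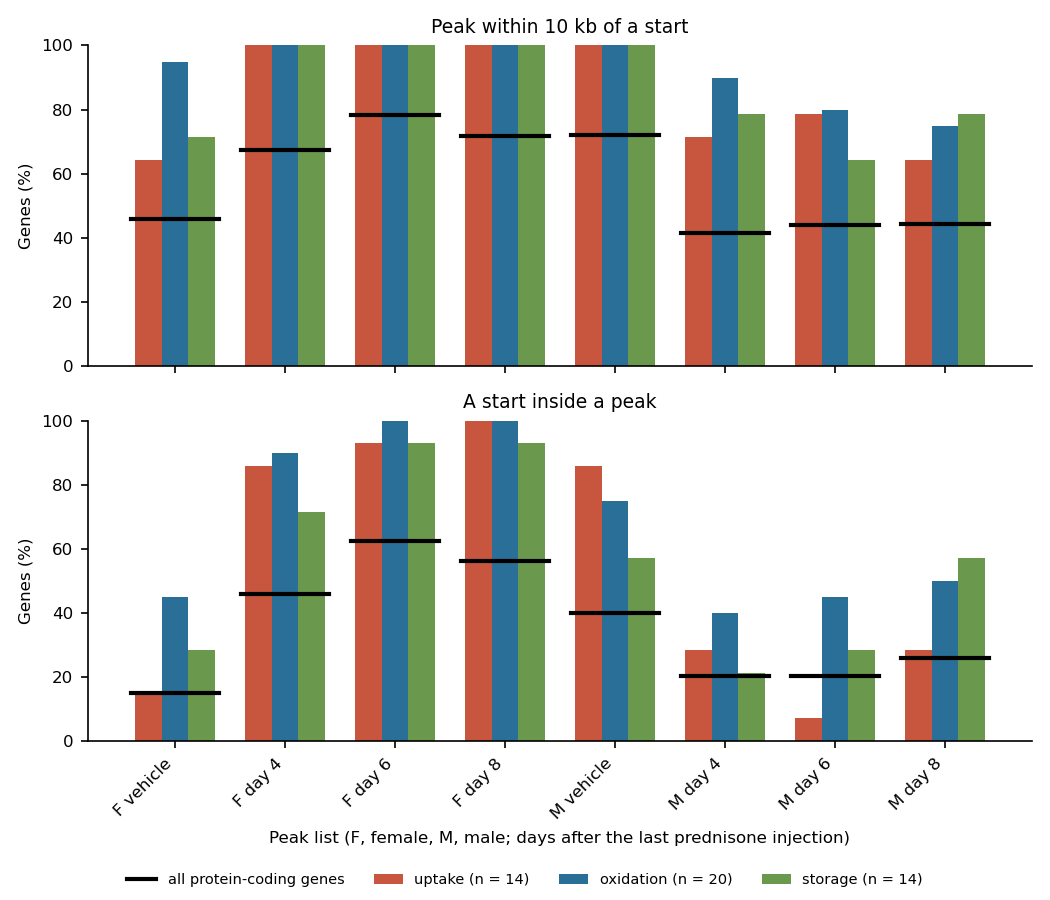
Share of uptake (14), oxidation (20) and storage (14) genes with a peak within 10 kb of a start (top) and with a start inside a peak (bottom), in percent, for each of the 8 peak lists. Bars are the 3 roles and black lines all protein-coding genes. In the top panel every bar stands above its line, and in the bottom panel the uptake bar lies below the line in female vehicle and at male day 6.

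Peaks at members gathered at the start and just inside the gene. At 0.5 kb after the first start, 43.8% of members lay in a peak in female vehicle, then 81.2%, 91.7% and 91.7%, beside 14.5%, 43.1%, 57.6% and 52.7% of all genes. In males the member shares there were 75.0%, 43.8%, 35.4% and 45.8%, beside 34.6%, 17.1%, 18.8% and 22.6%. At 5 kb into the gene they were 35.4% at female day 6 and 37.5% at day 8, beside 17.1% and 11.3%. At 5 kb before the start, female days 6 and 8 held 25.0% and 16.7% of members, beside 11.9% and 7.84% of all genes.

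**Figure D2:**
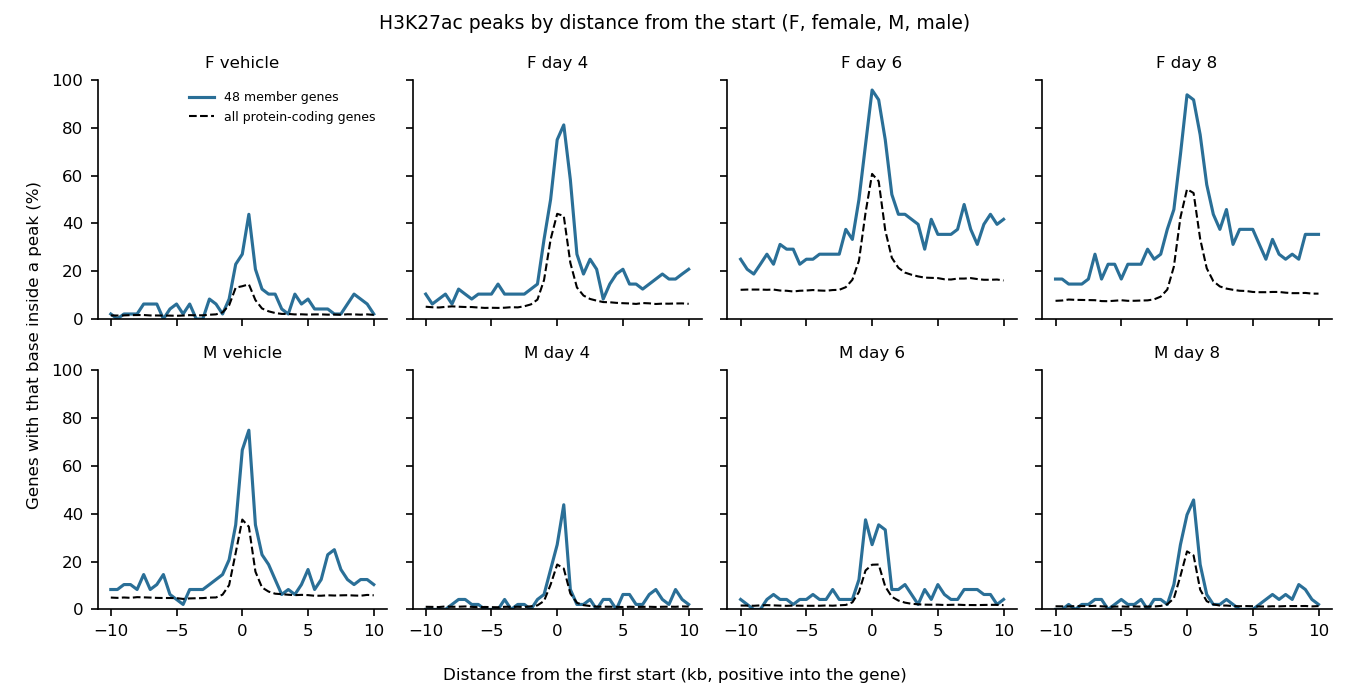
Percent of the 48 members (solid) and of all protein-coding genes (dashed) whose base at a given distance from the first start lay inside a peak, one panel per list, in steps of 0.5 kb from 10 kb before to 10 kb into the gene. The member line is highest at or within 0.5 kb of the start in every list and stays highest away from it at female days 6 and 8.

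For each member below, the kilobases of its start window that lay inside peaks are given in the order vehicle, day 4, day 6 and day 8 for each sex. The median share of the window in peaks over all 48 was 6.06%, 18.7%, 36.9% and 30.2% in females and 13.1%, 3.28%, 5.82% and 5.59% in males. Over all protein-coding genes the median was 0 in female vehicle and in the 3 treated male lists, 5.41%, 11.3% and 8.43% at female days 4, 6 and 8 and 5.01% in male vehicle. The female list with the most bases in peaks was day 6 for 28 members, day 8 for 19 and day 4 for 1, Acadl. Among the male lists it was vehicle for 36 members, day 6 for 7, day 8 for 3 and day 4 for 2. Covered bases grow with the length of a list, and how much of these differences comes with list length and depth was not tested.

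**Figure D3:**
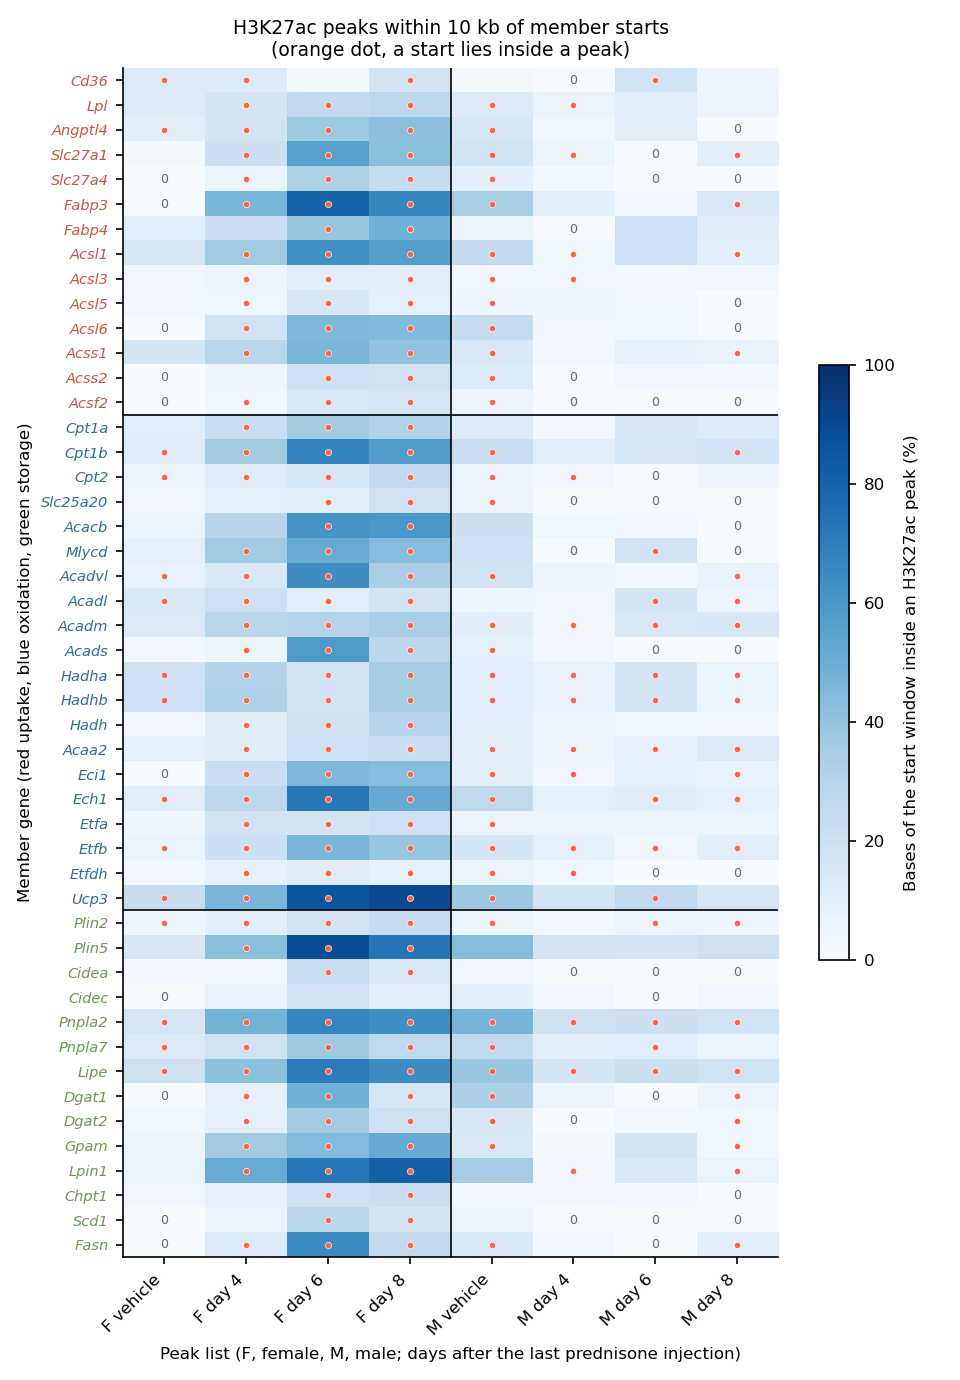
Percent of the start window of each of the 48 members (rows, with names colored by role) inside H3K27ac peaks in each of the 8 lists (columns), from white (0) to dark blue (100). Orange dots mark lists in which a start lay inside a peak, and a printed 0 marks windows without a peak. The darkest cells are at female days 6 and 8 (Ucp3, Plin5, Lpin1, Fabp3), and printed zeros occur in female vehicle and the treated male lists.

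At the vessel wall and the membrane, Lpl, which releases fatty acids from lipoproteins, had 2.48, 3.39, 5.16 and 5.60 kb in females and 2.63, 1.26, 1.95 and 0.956 kb in males. All 8 lists held a peak there. Angptl4, a secreted inhibitor of Lpl and a known glucocorticoid target, had 1.99, 3.52, 7.49 and 8.30 kb in females and 3.13, 0.501, 2.10 and 0 kb in males, with none at male day 8. Slc27a1 (chr8:71568871-71587307), the main fatty acid transport protein of muscle, had 0.501, 4.62, 12.2 and 9.07 kb in females and 4.01, 1.12, 0 and 2.18 kb in males. Its window also holds the starts of Nxnl1 and Tmem221, and a start of its own lay in a peak in each list but female vehicle and male day 6. Slc27a4, a related transporter, had 0, 1.18, 6.49 and 4.73 kb in females and 1.99, 0.501, 0 and 0 kb in males.

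Cd36 (chr5:17781690-17888959), the fatty acid translocase, had 7.11, 6.68, 0.863 and 9.44 kb in females and 0.501, 0, 10.1 and 2.14 kb in males. Male day 6 and female day 8 were highest, and male day 4, male vehicle and female day 6 lowest. It was the only member with the most bases in peaks at male day 6 among all 8 lists. The female day 6 list, with the most peaks of all, held 0.863 kb there. A start lay in a peak in female vehicle, at female days 4 and 8 and at male day 6, a pattern that 0.0810% of all genes shared in the female lists. Endothelial cells also use Cd36. Of 5 endothelial markers, 3, 4, 5 and 5 had a window peak in the female lists and 5, 3, 5 and 3 in the male lists, with summed covers of 1.16, 22.9, 38.9 and 32.3 kb and of 11.4, 3.54, 9.28 and 1.64 kb. As shares, these counts were 60.0%, 80.0%, 100% and 100% in females, beside 45.8%, 67.3%, 78.3% and 71.8% of all genes. In males they were 100%, 60.0%, 100% and 60.0%, beside 72.2%, 41.6%, 44.1% and 44.3%. Tek and Emcn were at 0 in female vehicle and at male day 8, Emcn at female day 4, and Kdr and Emcn at male day 4. Their part in the Cd36 result was not tested.

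**Figure D4:**
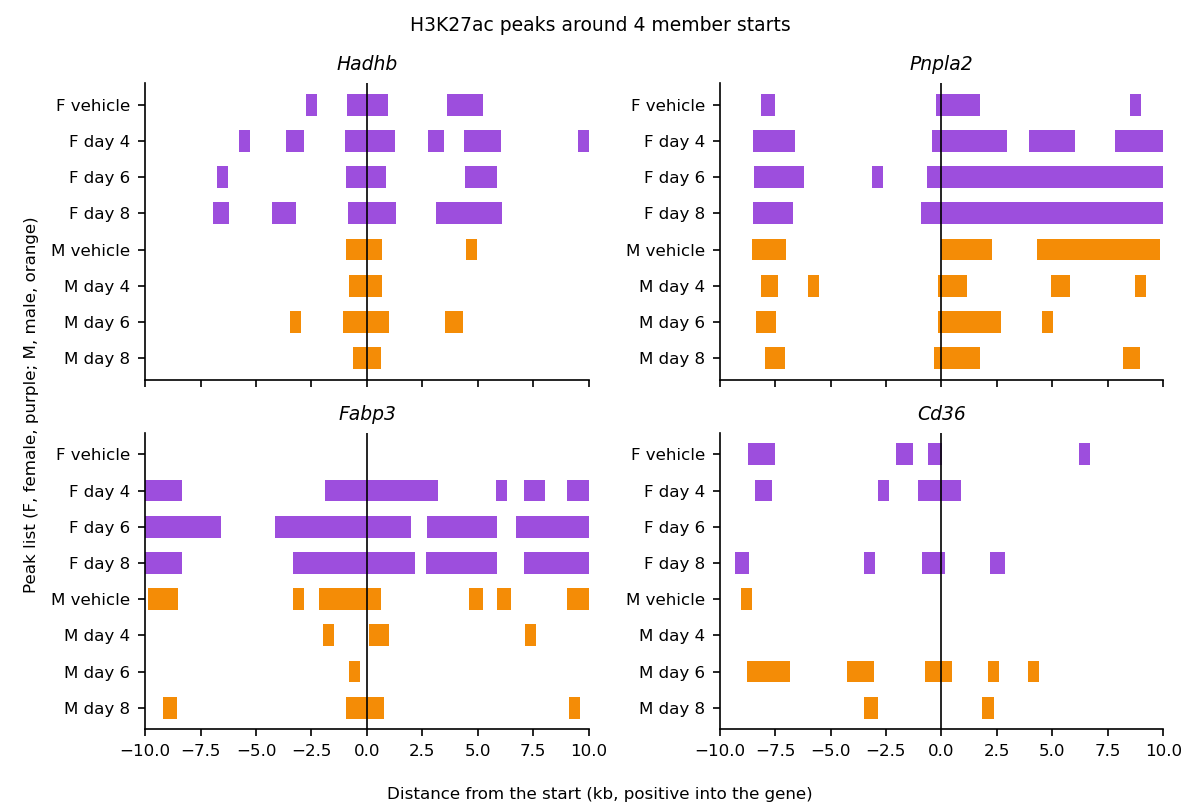
Peaks of the 8 lists (rows, purple for female and orange for male) within 10 kb of 1 start each of Hadhb, Pnpla2, Fabp3 and Cd36, with the distance from the start in kb on the x axis and 0 at the start. A peak spans the Hadhb and Pnpla2 starts in all 8 lists, Fabp3 has no peak in female vehicle, and Cd36 has none here at female day 6 and male day 4.

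Fabp3 (chr4:130308738-130315463), the heart-type fatty acid binding protein that is abundant in oxidative fibers, had 0, 9.21, 16.0 and 13.3 kb in females and 6.91, 1.92, 0.501 and 2.86 kb in males. Female vehicle was the only list without a peak. Fabp4, the binding protein of adipocytes and endothelium, had 2.13, 4.26, 7.72 and 9.77 kb in females and 1.20, 0, 4.18 and 2.20 kb in males. Adipocyte markers with a window peak numbered 2, 4, 4 and 5 of 7 in females and 6, 3, 1 and 1 in males, with summed covers of 1.00, 6.20, 21.6 and 13.8 kb and of 10.4, 1.72, 0.501 and 1.27 kb. As shares, these were 28.6%, 57.1%, 57.1% and 71.4% in females, beside 45.8%, 67.3%, 78.3% and 71.8% of all genes. In males they were 85.7%, 42.9%, 14.3% and 14.3%, beside 72.2%, 41.6%, 44.1% and 44.3%. Adipoq, the defining adipocyte gene, was at 0 in all lists but male vehicle, Lep was at 0 in all 4 female lists and at male days 6 and 8, and Plin1 was at 0 in female vehicle, at female day 4 and at male days 4, 6 and 8. Cfd was at 0 in female vehicle and at male days 4, 6 and 8, and Retn in these lists and at female day 6. Pparg was at 0 in male vehicle and at male day 8, and Cebpa at male day 6 alone. Pparg and Cebpa thus had a window peak in all 4 female lists. The part of fat cells in the values of Fabp4 and of the droplet genes below was not tested.

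The acyl-CoA synthetases join fatty acids or acetate to coenzyme A. Acsl1, the main long-chain enzyme of muscle, had 6.23, 14.6, 25.2 and 22.5 kb in females and 10.2, 1.50, 7.98 and 3.78 kb in males. Acsl3 had 0.681, 0.967, 2.00 and 2.09 kb in females and 0.781, 0.644, 0.501 and 0.633 kb in males, with a peak in all 8 lists. Acsl5 lacked a window peak at male day 8 alone. Acsl6 had 0, 6.01, 14.2 and 13.9 kb in females and 7.45, 1.00, 1.14 and 0 kb in males, with none in female vehicle. Mitochondrial Acss1 had 3.39, 5.81, 9.27 and 8.09 kb in females and 2.93, 0.501, 1.65 and 1.40 kb in males, with a peak in all 8 lists. Acss2, which makes acetyl-CoA outside mitochondria, had 0, 0.888, 4.08 and 3.87 kb in females and 2.67, 0, 0.627 and 0.501 kb in males. Acsf2 had 0, 0.752, 2.96 and 3.26 kb in females and 1.10, 0, 0 and 0 kb in males, so that among the male lists it had a peak in vehicle alone.

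For entry into mitochondria, Cpt1b, the muscle form of the carnitine palmitoyltransferase that commits fatty acids to oxidation, had 2.33, 7.21, 13.5 and 11.6 kb in females and 4.43, 1.88, 3.23 and 3.59 kb in males. Cpt1a, the liver form, had 2.13, 4.68, 7.13 and 6.21 kb in females and 2.59, 0.501, 3.06 and 2.43 kb in males. Both had peaks in all 8 lists. Cpt2, on the inner membrane, lacked a window peak at male day 6 alone. The carrier Slc25a20 had 0.641, 1.76, 2.06 and 3.85 kb in females and 1.00, 0, 0 and 0 kb in males, with no peak in the 3 treated male lists. Acacb and Mlycd make and degrade malonyl-CoA, the inhibitor of Cpt1. Acacb lacked a window peak at male day 8, and Mlycd at male days 4 and 8.

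The acyl-CoA dehydrogenases take the first step of β-oxidation. Acadvl, for very long chains, had 1.52, 2.85, 12.9 and 6.71 kb in females and 3.89, 0.820, 0.713 and 1.39 kb in males. Acadl had 2.77, 4.21, 2.19 and 3.59 kb in females and 0.829, 0.673, 3.50 and 1.12 kb in males, and its most covered female list was day 4. Acadm, for medium chains, had 2.49, 5.74, 5.94 and 6.89 kb in females and 2.26, 0.632, 2.88 and 2.98 kb in males, and its start lay in a peak in all lists but female vehicle. Acads had a window peak in all 4 female lists and in male vehicle and day 4, and none at male days 6 and 8.

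Hadha (chr5:30119423-30154980) and Hadhb (chr5:30155253-30184593) encode the subunits of the mitochondrial trifunctional protein and start on opposite strands, so that their windows share peaks and are not independent. Hadha had 3.99, 6.16, 3.73 and 6.97 kb in females and 2.14, 1.47, 3.38 and 1.27 kb in males. Hadhb had 3.99, 6.43, 3.73 and 6.97 kb in females and 2.14, 1.47, 3.38 and 1.27 kb in males, the same but for female day 4. At the peak over both starts, the deposited tags per 10 M were 42.9, 85.8, 324 and 198 in females and 68.9, 61.2, 48.1 and 31.8 in males, with folds over input of 3.83, 14.4, 37.0 and 36.4 in females and 5.63, 16.4, 3.72 and 3.90 in males. The peak was 1.84 kb wide in female vehicle and 1.27 kb at male day 8. Tags in a peak are scaled to depth but not to the share of tags in peaks, so they rank peaks within a list and are not levels of H3K27ac between lists. Hadh, the short-chain dehydrogenase, had 0.501, 2.20, 3.94 and 5.88 kb in females and 2.00, 1.00, 0.758 and 0.501 kb in males. Acaa2, the thiolase, had 1.77, 2.23, 4.20 and 4.28 kb in females and 1.94, 1.01, 1.61 and 2.55 kb in males, and its start lay in a peak in all lists but female vehicle.

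Eci1 and Ech1 move double bonds so that unsaturated chains can be oxidized. Eci1 had 0, 4.43, 9.09 and 8.59 kb in females and 2.08, 0.667, 1.76 and 1.37 kb in males, and was the only oxidation gene without a window peak in female vehicle. Ech1 had 2.06, 5.55, 14.4 and 10.3 kb in females and 5.42, 1.80, 2.22 and 1.86 kb in males. The electron transfer flavoprotein subunits Etfa and Etfb take electrons from the dehydrogenases. Etfa had 0.850, 3.66, 3.45 and 4.17 kb in females and 1.16, 1.13, 1.14 and 1.26 kb in males. Etfb (chr7:43444072-43457800) had 1.29, 4.22, 9.26 and 7.74 kb in females and 3.33, 1.73, 0.665 and 2.08 kb in males, and its start lay in a peak in all 8 lists. Etfdh had window peaks in the female lists and in male vehicle and day 4. Ucp3, a mitochondrial carrier of muscle that follows fatty acid supply, had 23.8, 46.6, 85.9 and 90.2% in females and 37.8, 17.2, 26.0 and 15.2% in males, given here as the share of its start window in peaks. The 90.2% at female day 8 was the highest share of any member and list.

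Among storage genes, Pnpla2 (chr7:141455188-141460743), the lipase that opens triglyceride breakdown (ATGL), had 3.15, 9.53, 13.4 and 12.7 kb in females and 9.42, 3.92, 4.26 and 3.69 kb in males. The share of its gene body in peaks was 31.4, 81.9, 100 and 100% in females and 63.8, 32.1, 57.3 and 31.0% in males. The window also holds the starts of Cracr2b and Rplp2. The tags per 10 M in the peak over its start were 60.0, 104, 2188 and 723 in females and 82.9, 53.2, 76.0 and 62.3 in males. The width of this peak was 2.00, 3.38, 24.7 and 17.5 kb in females and 2.33, 1.32, 2.85 and 2.04 kb in males. At female days 6 and 8 this peak ran through the whole gene and beyond it. Lipe (chr7:25379527-25395987), the hormone-sensitive lipase that follows ATGL, had 5.43, 10.8, 18.2 and 16.6 kb in females and 9.95, 4.33, 5.65 and 4.87 kb in males. The share of its body in peaks was 33.0, 59.7, 100 and 85.5% in females and 55.5, 26.3, 31.3 and 29.6% in males. Pnpla7, a lysophospholipase that starts opposite Mrpl41, had 2.61, 3.80, 7.48 and 5.45 kb in females and 5.30, 1.89, 2.17 and 1.19 kb in males.

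On the droplet, Plin2 had 0.827, 1.99, 3.62 and 4.72 kb in females and 1.22, 0.501, 1.19 and 0.786 kb in males, and Plin5, which tethers droplets to mitochondria, had 3.08, 8.52, 17.9 and 14.9 kb in females and 8.84, 3.60, 3.46 and 4.17 kb in males. The Plin5 window also holds the starts of Plin4 and Lrg1, and the starts of Plin5 itself lay in a peak at female days 4, 6 and 8 and in no other list. Cidea, a droplet fusion protein known from brown fat, had 0.501, 0.501, 4.69 and 2.87 kb in females and 0.501, 0, 0 and 0 kb in males. Cidec (chr6:113424634-113435760), its relative in white fat, had 0, 1.51, 3.82 and 2.06 kb in females and 2.03, 0.501, 0 and 0.735 kb in males, in a window shared with Jagn1. Its starts lay in no peak of any list, which was true of 1 member and of 33.6% of all genes.

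In triglyceride synthesis, Gpam adds the first acyl chain and had 2.41, 14.4, 17.7 and 20.6 kb in females and 5.68, 0.501, 6.88 and 1.50 kb in males. Lpin1 (chr12:16535669-16610966), the phosphatidate phosphatase that is also a coactivator of oxidation genes, had 2.51, 20.3, 28.9 and 32.4 kb in females and 14.0, 1.15, 5.67 and 2.52 kb in males. These 32.4 kb at female day 8 were the most of any member in any list. Dgat1 and Dgat2 add the last chain. Dgat1 had 0, 1.57, 9.73 and 3.24 kb in females and 6.56, 1.00, 0 and 1.12 kb in males, and Dgat2 lacked a window peak at male day 4 alone. Chpt1, which turns diacylglycerol into phosphatidylcholine, lacked one at male day 8 alone. Fasn, the fatty acid synthase, had 0, 2.67, 12.9 and 5.04 kb in females and 2.89, 0.501, 0 and 1.92 kb in males, and the desaturase Scd1 had 0, 1.14, 5.78 and 3.37 kb in females and 1.13, 0, 0 and 0 kb in males.

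A window peak in all 8 lists was found for 24 members, 4 of them uptake, 13 oxidation and 7 storage genes, beside 24.6% of all protein-coding genes. A start inside a peak in all 8 lists was found for 5 members, Hadha, Hadhb, Etfb, Pnpla2 and Lipe, beside 6.78%. Of the 48, 16 have another protein-coding start in the window, so their peaks may belong to a neighbor.

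A window peak absent in female vehicle and present at days 4, 6 and 8 was found for 10 members: Slc27a4, Fabp3, Acsl6, Acss2, Acsf2, Eci1, Cidec, Dgat1, Scd1 and Fasn. By role these are 5 uptake, 1 oxidation and 4 storage genes. The same pattern held for 22.1% of all genes, so the share of members is near the background. The other 38 members had a window peak in all 4 female lists. At the start, 25 members followed this pattern, 10 of uptake, 9 of oxidation and 6 of storage, beside 29.7% of all genes. Not all of these are new peaks, since a day 4 peak over a start can overlap a vehicle peak that stops short of it. A day 4 peak without any overlapping vehicle peak covered a start of 12 members, including Cd36, which is not among the 25. A window peak in male vehicle and in no treated male list was found for 4 members, Acsf2, Slc25a20, Cidea and Scd1, beside 17.3% of all genes. At the start, 9 members, 6 of uptake and 3 of oxidation, showed it, beside 10.9%.

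Within each list, peaks were ranked by their tags. The highest window peak of a member had a median percentile of 90.8, 91.9, 95.9 and 95.2 in females and 92.6, 68.7, 88.2 and 85.0 in males. For all protein-coding genes with a peak these were 79.9, 86.1, 91.8 and 88.5 in females and 86.4, 74.6, 82.7 and 77.5 in males. Members stood above all genes in 7 lists and below them at male day 4, the list of lowest depth.

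Day 4 gains, peaks with no overlapping vehicle peak of the same sex, were taken from the window and body of each member. In females 42 members had at least 1, beside 65.9% of all genes, and in males 15 members did, beside 21.2%. The 155 distinct female gains were 62 at uptake, 50 at oxidation and 43 at storage genes, and a gain covered a start of 12 members. The 17 male gains were 3, 11 and 3 by role, and none covered a start. With lists of equal length, 27 members had a gain in females and 29 in males, so that the larger number in females was not found at equal list length. The share of all genes with a gain at that length was not computed.

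Of the 155 female gains, 107 (69.0%, Wilson 95% interval 61.4% to 75.8%) overlapped a peak at day 6 and 106 (68.4%, 60.7% to 75.2%) at day 8, with 88 at both. The interval covers counting error only and treats the gains as independent, although they cluster by gene, with 20 at Lpin1. Among all 55291 female gains, taken over the whole genome and not only near genes, 50.3% were present at day 6 and 43.6% at day 8. The share for gains in the windows and bodies of all protein-coding genes was not computed. By role, 40 of 43 storage gains were present at day 6 and 36 at day 8, beside 40 and 38 of 62 uptake gains and 27 and 32 of 50 oxidation gains. Of the 43 storage gains, 20 were at Lpin1, with 19 present at day 6 and 19 at day 8. Of the 17 male gains, 4 (23.5%, 9.56% to 47.3%) were present at day 6 and 3 (17.6%, 6.19% to 41.0%) at day 8. Among all 7943 male gains, again over the whole genome, 5.84% and 5.01% were. With lists of equal length, the female shares were 32.7% at day 6 and 53.1% at day 8, and the male shares 24.4% and 41.5%. The shares of all gains at that length were not computed.

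Lpin1 had the most female gains, 20, of which 19 were present at day 6, 19 at day 8 and 18 at both. Acsl6 had 11, Acacb 9, and Acsl1, Acss1 and Cd36 8 each. Of the Cd36 gains, 1 was present at day 6 and 3 at day 8. Of 7 gains at Hadhb, none was present at day 6 and 3 were at day 8. All 5 Fabp3 gains and all 3 Dgat2 gains were present at both later days. Slc27a1 had 4 gains, with 3 at both days. Among male gains, 1 at Cpt1a and 1 at Hadhb were present at both later days.

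**Figure D5:**
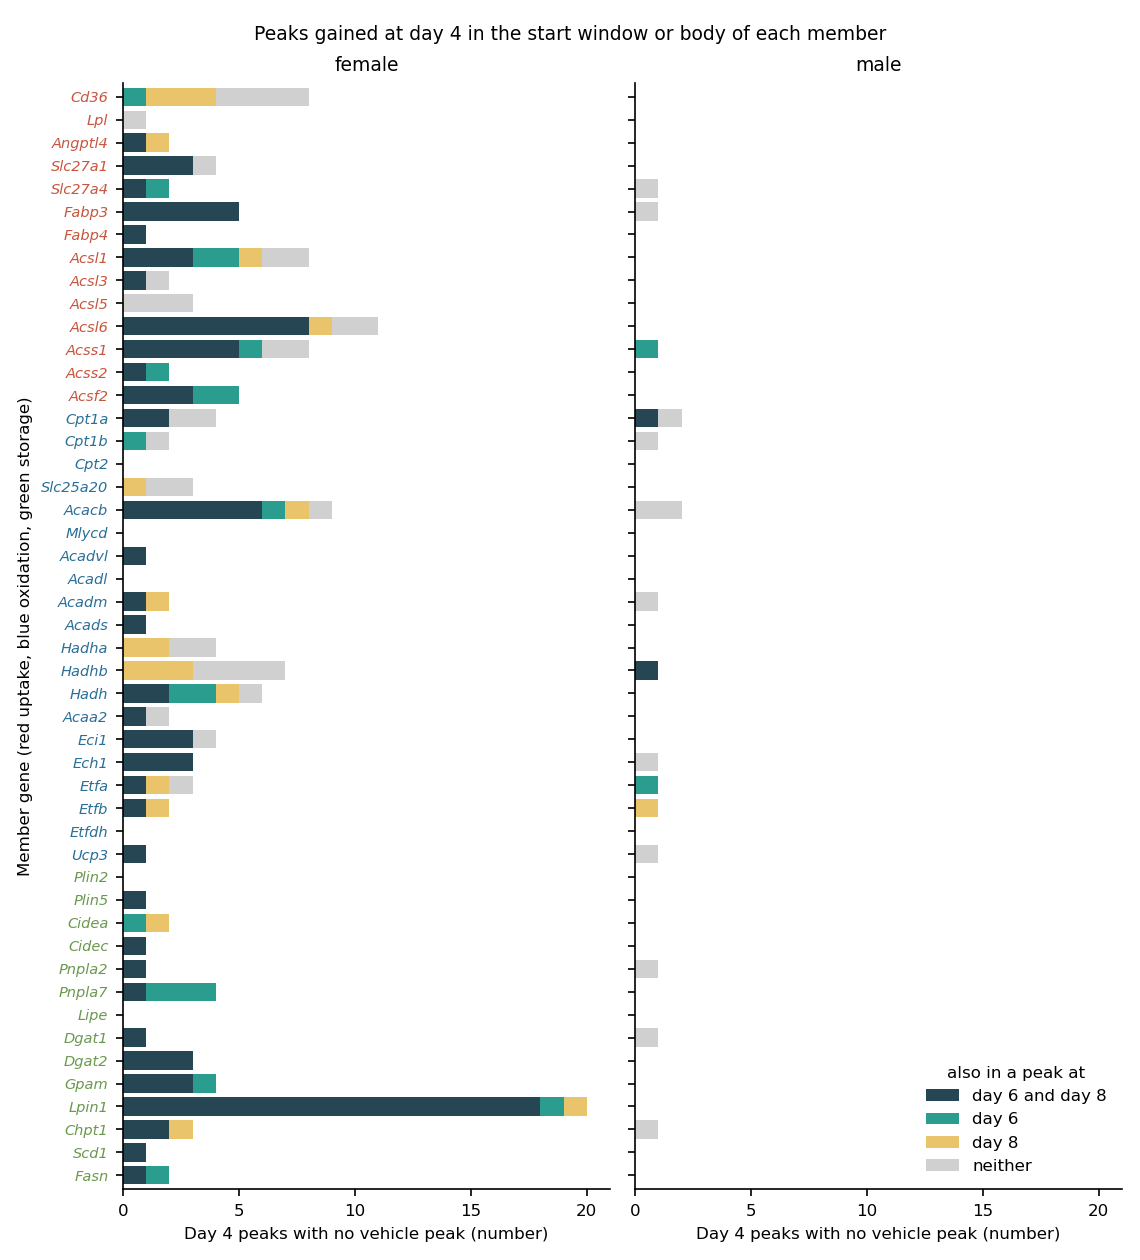
Number of day 4 peaks without a vehicle peak in the start window or body of each member, in females (left) and males (right). Colors show whether the peak overlapped a peak at day 6 and day 8, at only 1 of these days or at neither. Lpin1 has the longest female bar, 20 peaks, and no male bar is longer than 2.

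For other genes of lipid metabolism, 46 that are not members, 29, 42, 45 and 43 had a window peak in the female lists and 46, 29, 32 and 32 in the male lists. In females these were 63.0%, 91.3%, 97.8% and 93.5%, beside 45.8%, 67.3%, 78.3% and 71.8% of all genes. In males they were 100%, 63.0%, 69.6% and 69.6%, beside 72.2%, 41.6%, 44.1% and 44.3%. Starts of these 46 genes lay in peaks for 9, 33, 42 and 40 genes in females and 26, 19, 17 and 22 in males. Among all genes the start shares were 15.1%, 45.9%, 62.6% and 56.2% in females and 39.9%, 20.4%, 20.2% and 25.9% in males.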

How the data were processed

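H3K27ac ChIP-Seq of quadriceps myofibers gave 16 H3K27ac and 8 input libraries, grouped by sex and treatment from the labels. The submitters' processing notes name TopHat2 2.1.0, Bowtie2 2.2.6, HOMER and mm10, and the authors called peaks with HOMER findPeaks against input and deposited 1 list per group. The step that joined both libraries of a group into 1 list is not given in the sources used here. The deposited lists hold tags per peak (counts of the ChIP and of the input), a normalized tag count, which is a signal scaled by the authors to 10 M tags, a findPeaks score and the fold over input, a ratio that the authors required to be at least 2. The deposited p-values were not used. Depth was recovered from the deposited values, as tags over normalized tags where the tags are listed as counted, and otherwise from the spacing of the lowest normalized values, which are whole tags after scaling.

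Peaks were matched to 37867 curated transcripts of 21000 protein-coding genes (RefSeq, GRCm38.p6, the assembly of mm10) with Python 3.11.15, pandas 2.3.3, numpy 2.4.6 and scipy 1.17.1, and drawn with matplotlib 3.10.9. The members and gene lists were chosen with earlier results of these data known. A peak was counted at an overlap of 1 bp with the window of 10 kb either side of any start, with the gene body or with a start. Members were given with values in every list where a start window held a peak in all 8 lists, in no vehicle list but at all 3 treated days of that sex, or in vehicle alone, together with Slc27a1, Cidea and Cidec, which the GR ChIP of the study covered. Cd36, Angptl4 and Fabp4 lie outside this rule and were given after their values were seen, as were the motif matches printed. Other members were named by list. Values with 1 list per group have no replicate error, so no test was made. Wilson 95% intervals cover counting error only and treat gains of the same gene as independent. The matching was tested on simulated data, where 800 of 800 planted peaks were found and 6000 of 6000 gene calls equalled those of bedtools 2.31.1. Alternatives were lists of equal length, a fold of at least 4, a window of 2 kb, peak centers, the nearest start only and overlaps of 50%.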

Additional observations from a re-analysis of the deposited data

Results flagged for a closer look

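The sexes differed in sign in the day 4 minus vehicle number of members with a peak, and this difference was not tested. In the 10 kb start window the difference was 10 members in females and -9 in males. Over the gene body it was 8 in females and -10 in males, and for starts inside a peak 25 in females and -20 in males. Among all protein-coding genes these changes had the same signs. From vehicle to day 4, their window share went from 45.8% to 67.3% in females and from 72.2% to 41.6% in males. The body share went from 43.9% to 65.6% in females and from 69.3% to 38.5% in males. The start share went from 15.1% to 45.9% in females and from 39.9% to 20.4% in males. The male vehicle list held 87600 peaks and the male day 4 list 17482, at 31.6 and 7.52 M tags, whereas the female lists held 38861 and 67503 peaks at 27.5 and 49.0 M tags. With every list reduced to 17482 peaks, the window counts were 32 in vehicle and 35 at day 4 in females, and 33 and 39 in males, beside 32.6% and 41.2% of all genes in females and 41.2% and 41.6% in males, so that the opposite signs were not found in the window, nor over the body, where they were 30 and 34 in females and 33 and 37 in males. For starts inside a peak they were found at that length too, with 12 in vehicle and 26 at day 4 in females and 19 and 15 in males. Among all protein-coding genes the start shares at that length were 12.2% and 27.8% in females and 23.7% and 20.4% in males, with the same signs. Shares of all genes with a body peak were not computed at that length.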

How the results depend on the processing

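No paired analysis was possible because each group is represented by 1 peak list, with no values per library. Of 78 values recomputed under alternatives, 67 stayed within the limits set for the main value and 11 did not. These limits were wide. At equal list length, falls from 48 to 33 members with a window peak, at female day 8 and in male vehicle, stayed within them. With lists of equal length, the count of members with a window peak at female day 6 was 29, beside 42.2% of all genes at that length, and with a body peak 31, members with a day 4 gain numbered 27 in females and 29 in males, and the shares of gains still present in females were 32.7% on day 6 and 53.1% on day 8, with 41.5% on day 8 in males. With 50% of the gain covered, the female shares were 60.0% on day 6 and 60.6% on day 8, and the male share on day 6 was 5.88%. At a fold over input of at least 4, 25 members had a gain in males. Under the alternatives, no share of all genes with a gain or a body peak was computed, and no share of all gains present later. A window of 2 kb, peak centers and the nearest start alone moved no value beyond these limits. Leaving out a replicate was not run, since the lists pool both libraries. Depth limits the male day 4 list most, with 7.52 M tags, and a member without a peak there may carry H3K27ac below detection.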

Other observations

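Genes of neighboring pathways were counted in the same way. Of 35 genes of glucose use, 33, 35, 34 and 35 had a window peak in the female lists (vehicle, day 4, day 6 and day 8) and 35, 29, 33 and 31 in the male lists. Of 47 nuclear genes of oxidative phosphorylation, 40, 47, 47 and 47 had one in females and 47, 31, 44 and 42 in males. In every list both window shares were above that of all genes. In female vehicle they were 94.3% for glucose and 85.1% for oxidative phosphorylation genes, beside 79.2% of the 48 members and 45.8% of all genes. At male day 4 they were 82.9% and 66.0%, beside 81.2% of members and 41.6% of all genes. A start lay in a peak for 25, 47, 47 and 47 oxidative phosphorylation genes in females and 46, 23, 39 and 33 in males, and for 14, 34, 34 and 35 glucose genes in females and 29, 17, 22 and 26 in males. The start shares of all genes were 15.1%, 45.9%, 62.6% and 56.2% in females and 39.9%, 20.4%, 20.2% and 25.9% in males. In all 8 lists, starts of oxidative phosphorylation genes were in a peak more often than those of the 48 fatty acid genes. Of the latter, 15, 40, 46 and 47 starts were in a peak in females and 35, 15, 14 and 22 in males. This difference was not tested.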
